A study of Mus musculus with 2 samples.

Results

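Keratinocytes in which Lgr5 was detected were described in single-cell RNA profiles of mouse skin. A cell barcode counted as such a cell when it held at least 500 genes and 1000 unique molecular identifiers (UMIs, 1 per captured RNA molecule) with at most 10% mitochondrial UMIs, at least 1 Lgr5 UMI, at least 3 Krt14 UMIs and more of these than of Krt1 and Krt10 together. It also had to hold at most 1 Krt75 UMI, and its UMIs of the collagen genes Col1a1, Col1a2 and Col3a1 together had to stay below 0.3% of its total. This gave 705 of the 24312 retained cells, of which 512 came from the sitagliptin-labelled library and 193 from the PBS-labelled library. The samples were skin of male and female C57Bl6 mice aged 8 weeks, taken after an injection into the dermis of 100 ng sitagliptin, an inhibitor of the peptidase DPP4, in 100 µl phosphate-buffered saline (PBS), or of PBS alone as the control. The labels name 48 h without a clear starting event. They give no number of animals, and each treatment is 1 10x Chromium library of polyadenylated RNA, so no test between treatments could be made. All intervals in parentheses are 95% intervals that cover counting error only. The deposited name of each library carries the initial letter of the other treatment. The groups here follow the sample labels, and every direction between treatments would turn round if the libraries had been exchanged.

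LGR5 is a receptor for R-spondins, secreted proteins that raise the response of a cell to Wnt signals, and its gene is itself a Wnt target. In the resting mouse hair follicle, Lgr5 marks cells of the lower bulge and of the hair germ beneath it, which give rise to much of the follicle when a new growth phase begins. Bulge cells are known for Cd34, Krt15, Lhx2 and Sox9, and the hair germ for Cdh3, Lef1, the hedgehog receptor gene Ptch1, and Pdgfa, a growth factor for dermal cells. Krt14 marks basal keratinocytes, Krt1 and Krt10 the differentiated layers above them, and Krt75 the companion layer and inner bulge.

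In mm10 coordinates, Lgr5 (ENSMUSG00000020140) lies on chromosome 10 from 115450311 to 115587780. Slc7a2 (ENSMUSG00000031596), which encodes a transporter of cationic amino acids such as arginine, lies on chromosome 8 from 40862396 to 40922308. Cd34 (ENSMUSG00000016494), which encodes a surface sialomucin, lies on chromosome 1 from 194938819 to 194961279. The counts are per gene and do not tell exons or transcript ends apart.

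In all, 22085 barcodes with 95047000 UMIs (median 2108 per barcode) made up the sitagliptin-labelled library, and 10456 barcodes with 70729930 UMIs (median 4206) the PBS-labelled library. The Lgr5-detected cells had a median of 3120.5 UMIs and 1412 genes in the sitagliptin-labelled library, against 7308 UMIs and 2589 genes in the PBS-labelled library. Mitochondrial UMIs made up a median of 5.79% in the sitagliptin-labelled library and 6.56% in the PBS-labelled library. Of the barcode sequences, 75 occurred in both libraries, among them those of 2 and 1 Lgr5-detected cells. Levels below are summed UMIs of a set of cells per 1000000 of its summed UMIs (CPM), and the sums behind them were 2683547 UMIs in the sitagliptin-labelled and 1903702 UMIs in the PBS-labelled Lgr5-detected cells.

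Most Lgr5-detected cells held a single Lgr5 UMI. This was the case for 348 of 512 cells in the sitagliptin-labelled library and 101 of 193 in the PBS-labelled library, while 79 and 57 cells held 3 or more and the highest counts were 15 and 18. Because the selection used Lgr5, these counts describe the cells and test nothing. The pooled Lgr5 level was 321 CPM (299.8 to 343) in the sitagliptin-labelled cells and 254 CPM (232 to 277) in the PBS-labelled cells.

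Single Lgr5 UMIs also occurred outside the selection. Of all keratinocytes that met every condition except that on Lgr5, 7.42% (6.81 to 8.07) held an Lgr5 UMI in the sitagliptin-labelled library (512 of 6899) and 6.82% (5.92 to 7.82) in the PBS-labelled library (193 of 2828). Another set, called Krt1 or Krt10 cells below, held more UMIs of Krt1 and Krt10 together than of Krt14 and met the collagen limit. In it the share was 5.12% (4.71 to 5.55) in the sitagliptin-labelled library at a median of 2089 UMIs and 2.25% (1.69 to 2.93) in the PBS-labelled library at 6401 UMIs. Immune barcodes, which should lack Lgr5, held it in 0 of 18 sitagliptin-labelled cells, which allows a share of up to 16.7%, and in 0.585% of 684 PBS-labelled cells at a median of 3604 UMIs. Collagen-high barcodes held it in 3 of 47 sitagliptin-labelled cells (6.38%) and 17 of 472 PBS-labelled cells (3.60%). Free RNA in droplets can give UMIs in cells that do not express a gene, so a single Lgr5 UMI does not by itself show expression. The share of Krt14 keratinocytes, at median depths of 2550 and 7959.5 UMIs, stood above these in the PBS-labelled library and above that of the Krt1 or Krt10 cells in both. With at least 2 UMIs required, the share was 2.38% in the sitagliptin-labelled and 3.25% in the PBS-labelled Krt14 keratinocytes. The same requirement left 0.789% and 0.934% of the Krt1 or Krt10 cells and none of the immune barcodes.

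**Figure D1:**
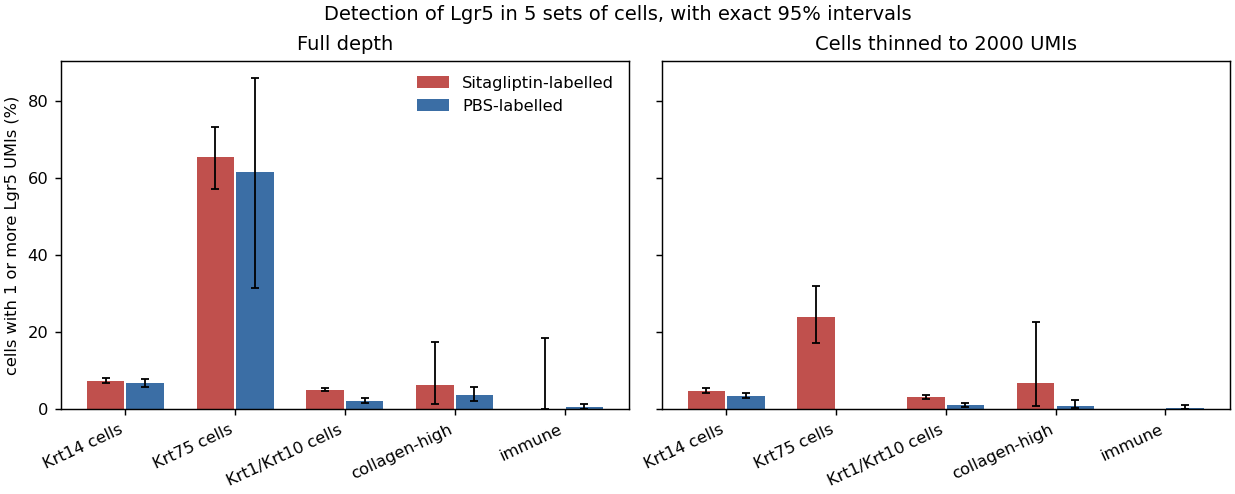
Percentage of cells with at least 1 Lgr5 UMI by cell set, with exact 95% binomial intervals, for the sitagliptin-labelled and the PBS-labelled library; the left panel uses all UMIs and the right panel cells thinned to 2000 UMIs, where the PBS-labelled Krt75 cells and the sitagliptin-labelled immune barcodes are not shown because too few reached that depth. Krt75 cells stand highest (65.5% and 61.5% at full depth), and Krt14 keratinocytes lie at 7.42% and 6.82%, above the Krt1 or Krt10 cells at 5.12% and 2.25%.

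Most selected cells stood at the minimum of the rule for Lgr5, the 348 and 101 with 1 UMI, and beyond it lay the 6387 and 2635 keratinocytes with none. Of all 1210 and 282 retained cells with Lgr5, 600 in the sitagliptin-labelled and 76 in the PBS-labelled library were left out because Krt1 and Krt10 were not below Krt14. A further 95 and 8 met every condition but held at least 2 Krt75 UMIs. Krt14 stood at its minimum of 3 UMIs in 3 sitagliptin-labelled cells and in 0 PBS-labelled cells, and 1 UMI short of it in 1 and 0 more. Krt75 stood at its maximum of 1 UMI in 33 and 10 cells, and 1 UMI above it in 11 and 1 unselected cells. For the keratin balance, 108 and 10 selected cells had Krt14 at up to 1.5 times Krt1 plus Krt10, and 182 and 18 unselected cells had Krt1 plus Krt10 at up to 1.5 times Krt14. The median selected cell held 19 Krt14 UMIs in the sitagliptin-labelled and 28 in the PBS-labelled library, beside 6 UMIs of Krt1 and Krt10 in each.

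Levels of marker genes were described next. Slc7a2, Pdgfa and Lef1 were given with the label, with earlier results of these data known, so their levels do not test it. All 3 were higher in Lgr5-detected cells than in the 6387 and 2635 Krt14 keratinocytes without Lgr5, called Lgr5-undetected below. Slc7a2 was at 49.9 CPM (41.8 to 59.1) in sitagliptin-labelled Lgr5-detected cells against 4.12 CPM in Lgr5-undetected cells, and at 115 CPM (99.8 to 131) against 3.46 CPM in the PBS-labelled library. That is 12.1-fold (9.36 to 15.7) and 33.1-fold (25.9 to 42.7) higher. Pdgfa was at 145 against 62.1 CPM in the sitagliptin-labelled and 216 against 63.5 CPM in the PBS-labelled library. Lef1, the nuclear partner of beta-catenin, was at 16.8 against 0.766 CPM and at 28.9 against 0.595 CPM.

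The share of cells in which these markers were detected differed between the genes and the libraries. Slc7a2 was found in 45 of 512 sitagliptin-labelled cells (8.79%) and 50 of 193 PBS-labelled cells (25.9%), against 1.39% and 2.43% of Lgr5-undetected cells. After thinning every cell to 2000 UMIs, which left out shallower cells and kept 351 and 190 Lgr5-detected cells, the shares were 7.41% and 14.7%, against 1.04% and 0.789% of Lgr5-undetected cells. Lef1 was found in 4.88% of sitagliptin-labelled and 16.1% of PBS-labelled cells, and Pdgfa in 37.5% and 68.4%. None of Pdgfa, Slc7a2 and Lef1 was detected in 305 sitagliptin-labelled cells (59.6%) and 54 PBS-labelled cells (28.0%). All 3 were found together in 15 and 19 cells.

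Bulge markers were more widespread. Of 14 bulge markers, 13 were detected in at least 10% of the Lgr5-detected cells of each library. The 14 summed to 9900.3 CPM in sitagliptin-labelled Lgr5-detected cells against 4357 CPM in Lgr5-undetected cells. In the PBS-labelled library the sums were 8439.9 against 3347 CPM. Most of each sum was Krt15, whose levels are given below. The 10 hair germ markers summed to 398 against 140.4 CPM in the sitagliptin-labelled and 557 against 138.6 CPM in the PBS-labelled library. Of the 11 bulge markers that reached 50 CPM in either set in both libraries, 9 were at least 1.5-fold higher in each, as were 6.91% of all genes tested. Cd34, among them, reached 50 CPM only in Lgr5-detected cells. Cd34 was found in 43.8% of sitagliptin-labelled and 44.6% of PBS-labelled Lgr5-detected cells, against 9.61% and 3.95% of Lgr5-undetected cells. Lhx2, a transcription factor that maintains bulge stem cells, was found in 56.1% and 68.9%, against 16.6% and 8.65%. Still, 120 sitagliptin-labelled cells (23.4%) and 18 PBS-labelled cells (9.33%) held no UMI of Cd34, Lhx2, Pdgfa, Slc7a2 or Lef1, so the markers do not place every selected cell in the bulge or hair germ. Of 8 upper follicle markers Lgr6 alone was at least 1.5-fold higher in both libraries and 0 were lower, and of 4 companion layer markers 0 were higher and Krt16 was lower. Of 7 markers of the epidermis between follicles, 1 was higher and 2 were lower, among them Krt14 of the rule.

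Summed markers of macrophages, dendritic cells, T cells and sebocytes stood lower in Lgr5-detected than in Lgr5-undetected cells, and those of melanocytes, fibroblasts and the hair shaft stood higher. Summed macrophage markers stood at 20.1 CPM in the sitagliptin-labelled and 435.5 CPM in the PBS-labelled cells, against 21.7 and 565.3 CPM in Lgr5-undetected cells. Langerhans or dendritic cell markers stood at 48.8 and 375.1 CPM, against 98.0 and 482.8 CPM, and sebocyte markers at 305.6 and 292.6 CPM, against 667 and 561 CPM. Fibroblast markers stood at 26.1 and 68.8 CPM, against 12.8 and 50.3 CPM. T cell markers stood at 4.84 and 16.8 CPM, against 10.8 and 30.2 CPM. Matrix, root sheath and hair shaft markers stood at 68.6 and 85.1 CPM, against 44.0 and 36.3 CPM, with Krt73 and Krt35 at 0 in both libraries. Merkel cell markers summed to 0.745 and 4.20 CPM, with Krt18, Krt20 and Atoh1 at 0, and endothelial markers to 1.86 and 6.30 CPM. Each of these sums is small beside that of the bulge markers, most of which is Krt15. Other keratinocyte markers were not: those of the epidermis between follicles, Krt14 among them, summed to 17558 and 13651 CPM. Upper follicle markers summed to 5046 and 4239 CPM and suprabasal markers to 3958 and 2239 CPM. The bulge sum was 9973 and 7188 CPM in Cd34-detected keratinocytes without Lgr5, and 18601 and 19122 CPM in keratinocytes with at least 2 Krt75 UMIs. Melanocyte markers summed to 59.6 CPM in sitagliptin-labelled and 112.4 CPM in PBS-labelled Lgr5-detected cells, against 6.09 and 9.0 CPM in Lgr5-undetected cells. These melanocyte UMIs were concentrated: 5 sitagliptin-labelled cells held 88.1% of them and 9 PBS-labelled cells 96.7%, and 4 and 8 of those cells also held Slc7a2.

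In cells with Lgr5, the genes that stood highest over other Krt14 keratinocytes included Cd34, Lhx2, Sfrp1, Grem1 and Krt24, while Scd1, Fabp5 and Ly6a were among those lowest. Of 3169 genes tested, meaning those at 50 CPM or more in either set with at least 20 UMIs in all, in each library, 109 (3.44%) stood 2-fold or more above Lgr5-undetected cells in both libraries, and 32 (1.01%) stood 2-fold or more below them. At 1.5-fold the counts were 219 (6.91%) and 151 (4.76%). Lgr5 itself, fixed by the selection, is in the counts of higher genes. The other values are a description of cells that were picked by a count in the same cells, with no test. A gene below 50 CPM in Lgr5-undetected cells passed the filter only through Lgr5-detected cells and could not count as lower. One below 50 CPM in Lgr5-detected cells could not count as higher. This holds for all list counts against Lgr5-undetected cells, which are therefore descriptions too.

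Fam13a was at 129 CPM (116 to 143) in sitagliptin-labelled Lgr5-detected cells against 12.6 CPM in Lgr5-undetected cells, and at 222 CPM (201 to 244) against 5.39 CPM in the PBS-labelled library, which is 10.2-fold (8.78 to 11.9) and 41.1-fold (33.97 to 50) higher. Krt24, a type I keratin, was at 387 against 47.9 CPM and at 204 against 17.6 CPM, 8.08-fold (7.44 to 8.77) and 11.6-fold (10.1 to 13.3) higher. Cd34 was at 221 CPM (204 to 239.5) against 34.8 CPM and at 144 CPM (128 to 163) against 7.21 CPM. In both libraries the interval of the Cd34 ratio lay far from 1, at 6.35-fold (5.72 to 7.04) for the sitagliptin-labelled and 20.02-fold (16.6 to 24.2) for the PBS-labelled cells. Il31ra, a subunit of the interleukin-31 receptor, was 7.31-fold and 36.3-fold higher, with 218 and 132 CPM in Lgr5-detected cells; its PBS-labelled ratio was 156 with at most 5% mitochondrial UMIs and 24.1 when cells were thinned to 1000 UMIs. Tbx1, a T-box transcription factor of the bulge, was 6.41-fold and 24.1-fold higher, with 169.9 and 192 CPM. The larger ratios of the PBS-labelled library went with lower levels in its Lgr5-undetected cells.

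Several of these genes act against Wnt or BMP signals. Sfrp1, a secreted Wnt antagonist, was at 630.1 CPM (600.5 to 661) in sitagliptin-labelled Lgr5-detected cells against 113 CPM in Lgr5-undetected cells, and at 464 CPM (434 to 496) against 49.05 CPM in the PBS-labelled library. Trabd2b, a membrane protease that inactivates Wnt proteins, was 6.72-fold and 16.9-fold higher. Shisa2, a Shisa-family gene, was 6.28-fold and 21.6-fold higher. Grem1, a secreted BMP antagonist, was at 116 against 21.1 CPM and at 112 against 5.65 CPM. The matrix and adhesion genes Ctgf, Hmcn1 and Sdk2 were 5.30-fold, 5.50-fold and 6.34-fold higher in the sitagliptin-labelled and 14.3-fold, 10.2-fold and 16.6-fold higher in the PBS-labelled library. Map1b, a microtubule-associated protein, was 5.91-fold and 8.89-fold higher, and Phlda1 5.63-fold and 7.40-fold.

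Scd1, the desaturase that makes monounsaturated fatty acids, was at 110.3 CPM in sitagliptin-labelled Lgr5-detected cells against 372 CPM in Lgr5-undetected cells, and at 71.4 against 282 CPM in the PBS-labelled library, 3.38-fold (3.01 to 3.803) and 3.95-fold (3.33 to 4.72) lower. The fatty acid elongases Elovl4 and Elovl6 were 2.41-fold and 3.77-fold lower in the sitagliptin-labelled and 3.34-fold and 2.59-fold lower in the PBS-labelled library. Fabp5, a carrier of fatty acids, was 2.41-fold and 3.32-fold lower, and Mgll, a lipase of monoacylglycerols, 2.83-fold and 3.14-fold lower. With cells limited to 5% mitochondrial UMIs, which left 34 PBS-labelled Lgr5-detected cells, Elovl6 stood higher in these in the PBS-labelled library, at 1.35-fold. Stfa3, a cysteine protease inhibitor, Ndufa4l2 and the mitotic cyclin gene Ccnb2 were between 2.43-fold and 3.96-fold lower in the 2 libraries. Ly6a, known from the upper follicle and the epidermis between follicles, was at 79.4 against 185 CPM and at 76.7 against 244 CPM. Of the 31-base words in the last part of its transcripts, 27.1% also occur in other genes, so not all its reads can be told from theirs. This share was 14.5% for Elovl6 and 11.1% for Krt14 of the rule.

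**Figure D2:**
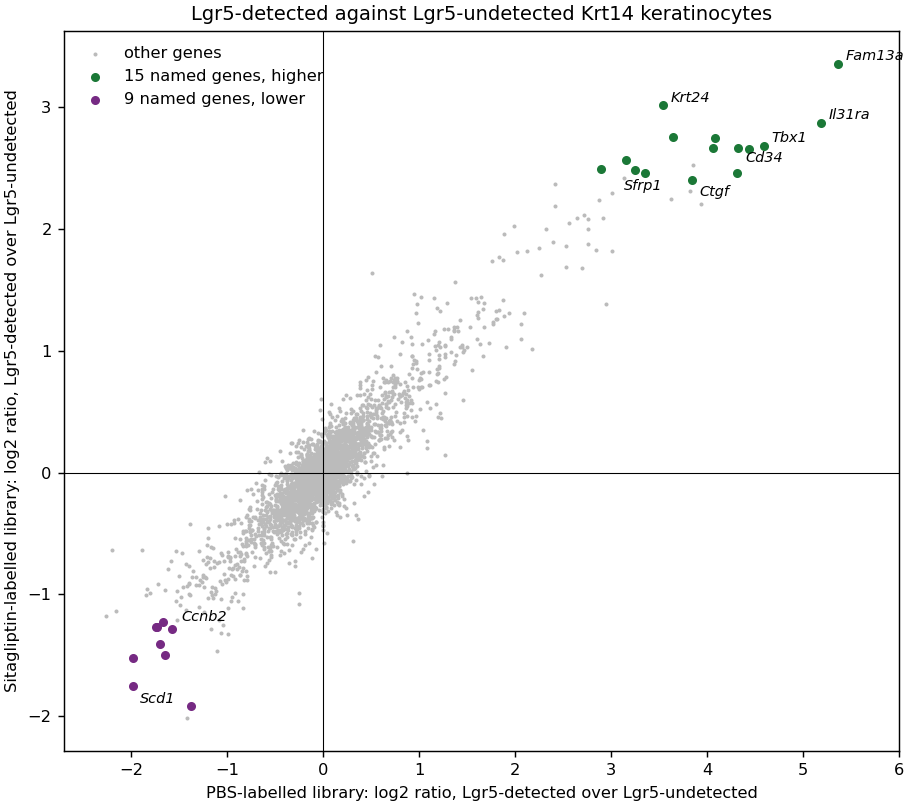
Each point is a tested gene, with the log2 ratio of its level in Lgr5-detected over Lgr5-undetected Krt14 keratinocytes in the sitagliptin-labelled library (y axis) and the PBS-labelled library (x axis). Green points are the named genes that were higher and purple points the named genes that were lower; Fam13a lies farthest right among the named genes, at 10.2-fold in the sitagliptin-labelled and 41.1-fold in the PBS-labelled library.

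Most Wnt receptor genes that passed the filter stood higher in Lgr5-detected cells. Of 10 R-spondin and Wnt receptor genes that passed the filter, 7 were at least 1.5-fold higher in both libraries, 1 of them Lgr5 itself, and 1 was lower. Over all tested genes, 6.91% were higher and 4.76% lower in both libraries. The list's median log2 ratio was 0.995 in the sitagliptin-labelled and 1.15 in the PBS-labelled library, against -0.01 and -0.02 over all tested genes. The other R-spondin receptor genes followed: Lgr4 was 2.23-fold and 2.24-fold higher and Lgr6 1.96-fold and 2.14-fold. Fzd2, a Wnt receptor, was 4.24-fold (3.72 to 4.81) and 6.76-fold (5.78 to 7.89) higher, while Fzd10 had ratios of 0.645 and 0.270. Lrp6, the co-receptor, was 1.69-fold and 1.999-fold higher. Of 18 Wnt and R-spondin ligand genes 3 passed the filter, of which Wnt4 and Wnt10a were lower in both libraries and 1 lay between the 1.5-fold limits. Wnt4 was at 106 against 203 CPM in the sitagliptin-labelled and 109 against 292 CPM in the PBS-labelled library.

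Of 3 Wnt inhibitor genes that passed the filter in both libraries, 2 were higher, Sfrp1 and Dkk3, beside 6.91% of all tested genes. Dkk3, a Dickkopf-family gene, was at 146 against 27.3 CPM and at 91.9 against 10.5 CPM, so it passed the filter only through Lgr5-detected cells. The third, Sostdc1, had ratios of 0.984 and 0.843. Of 7 Wnt targets and nuclear factors that passed the filter, Tcf7l2 and Tle1, a DNA-binding partner of beta-catenin and a co-repressor, were higher in both libraries. Axin2, the most used readout of Wnt activity, was at 50.7 against 51.3 CPM in the sitagliptin-labelled and 34.7 against 43.1 CPM in the PBS-labelled library. Its ratios of 0.988 (0.823 to 1.18) and 0.805 (0.618 to 1.03) had intervals that held 1.

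Of 12 hedgehog genes 4 passed the filter, and 3 of these were higher in both libraries, beside 6.91% of all tested genes. Ptch1 passed only through its level in Lgr5-detected cells, so its place in this count is no test. Ptch1, at once receptor and target of the pathway, was at 102 CPM (90.4 to 115) in sitagliptin-labelled Lgr5-detected cells against 20.8 CPM in Lgr5-undetected cells, and at 133 CPM (117 to 150.3) against 16.5 CPM in the PBS-labelled library. The co-receptor genes Boc and Gas1 were 2.13-fold and 2.55-fold higher in the sitagliptin-labelled and 3.04-fold and 2.27-fold higher in the PBS-labelled library. Smo, the signal transducer and the remaining gene of the list that passed the filter, had ratios of 1.13 and 1.25. In the BMP list 2 of 8 were higher, Grem1 and Smad7, an inhibitory SMAD. The targets Id1, Id2 and Id3 were higher in both libraries, Id2 by 3.50-fold and 4.04-fold.

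Of 13 growth factor and receptor genes that passed the filter, 9 were higher in both libraries and 0 lower. Over all tested genes, 6.91% were higher and 4.76% lower. Ptn, a heparin-binding growth factor, was at 1125 against 453 CPM and at 1019 against 240.1 CPM. Cxcl14, a chemokine, was at 1649 against 426 CPM and at 1068 against 289.8 CPM. Fgfr1 was 3.58-fold and 4.73-fold higher, and the semaphorin Sema3e 3.55-fold and 7.13-fold. Of 19 follicle transcription factors, 9 were higher and 2 lower in both libraries. Lhx2 was at 294 against 63.7 CPM and at 272 against 17.8 CPM, and Sox9 was 2.05-fold and 2.68-fold higher. The 2 lower were Gata3 and Klf5, with ratios of 0.624 and 0.603 in the sitagliptin-labelled and 0.482 and 0.455 in the PBS-labelled library.

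Among 12 keratins that passed the filter, Krt15 and Krt24 were higher in both libraries and 5 were lower. The lower ones were Krt16, Krt77 and 3 genes of the rule, Krt14, Krt1 and Krt10. Krt15 was at 6416 against 3104 CPM in the sitagliptin-labelled and 5708 against 2492 CPM in the PBS-labelled library. The counts of this paragraph stand beside 6.91% of all tested genes higher and 4.76% lower in both libraries. Of 21 adhesion and matrix genes, 4 were higher, among them Npnt, the nephronectin gene of the bulge basement membrane, at 3.70-fold and 5.25-fold. In the list of amino acid transporters and arginine enzymes, 4 genes passed the filter in both libraries, Slc7a2 not among them. Of these 4, the transporter genes Slc3a2, Slc38a2 and Slc6a6 were higher. Slc6a6, the taurine transporter gene, was at 3.40-fold and 3.55-fold. Of 12 glucocorticoid-responsive genes, 6 were higher, among them the receptor gene Nr3c1 itself at 1.96-fold and 2.41-fold. Of 6 interferon and antigen presentation genes, 3 were lower, namely Psmb8, H2-K1 and H2-D1. Among dissociation and immediate early genes, 1 of 21 was higher and 0 lower. In the wound list, 2 of 5 were lower, and 1 of 9 cyclin and cell cycle inhibitor genes was higher. For the dissociation genes the share is near that of all tested genes, and for the cyclin list it rests on 1 gene, Btg2, which is in both lists.

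Cell cycle genes were lower in Lgr5-detected cells but far from absent. Of 18 S and M phase genes that passed the filter, 14 were at least 1.5-fold lower in both libraries and 0 higher. Over all tested genes, 4.76% were lower and 6.91% higher. Median log2 ratios of the S and M phase genes were -0.89 in the sitagliptin-labelled and -0.92 in the PBS-labelled library. Mki67 was at 224 CPM in sitagliptin-labelled Lgr5-detected cells against 349 CPM in Lgr5-undetected cells, and at 162 against 398 CPM in the PBS-labelled library. Mki67 or Top2a was detected in 185 sitagliptin-labelled Lgr5-detected cells (36.1%) and 69 PBS-labelled ones (35.8%). A single UMI counted here, free RNA can add UMIs, and median depth was 3120.5 and 7308 UMIs. These are therefore not shares of dividing cells. Dpp4, the target of sitagliptin, was low in these cells, at 4.84 CPM in sitagliptin-labelled and 2.10 CPM in PBS-labelled Lgr5-detected cells, against 23.6 and 206 CPM in collagen-high barcodes. Of the DPP4 family only Dpp8 passed the filter, with ratios of 0.840 and 1.12 over Lgr5-undetected cells.

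The genes did not follow the number of Lgr5 UMIs in one way. Slc7a2 was higher with each step: in cells with 0, 1, 2 and at least 3 Lgr5 UMIs its level was 4.12, 20.7, 39.2 and 124 CPM in the sitagliptin-labelled library and 3.46, 59.5, 69.4 and 202 CPM in the PBS-labelled library. Lef1 had 0.766, 6.46, 13.1 and 42.9 CPM in the sitagliptin-labelled library, and 0.595, 16.2, 26.97 and 45.9 CPM in the PBS-labelled library. Fam13a, Ptch1 and Lhx2 were also highest at 3 or more UMIs in both libraries. Ptch1 was at 20.8, 60.1, 115 and 189 CPM in the sitagliptin-labelled library and 16.5, 62.7, 100.2 and 235 CPM in the PBS-labelled library. Cd34 was highest at 2 Lgr5 UMIs instead, with 34.8, 176, 309 and 265 CPM in the sitagliptin-labelled library and 7.21, 82.2, 277 and 177 CPM in the PBS-labelled library. Sfrp1 had the same order, with 113, 469.8, 888 and 822 CPM and 49.05, 256, 786 and 616 CPM. Deeper cells can hold more Lgr5 UMIs: median depth was 2443.5, 3717 and 6314 UMIs for 1, 2 and at least 3 Lgr5 UMIs in the sitagliptin-labelled library and 7111, 4130 and 10252 in the PBS-labelled library.

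Of the upper follicle genes, Krt79, Cst6 and Gata6 ran the other way. Krt79, a keratin of the upper follicle and its duct cells, was at 1717, 1446, 749 and 529 CPM for 0, 1, 2 and at least 3 Lgr5 UMIs in the sitagliptin-labelled library and at 1396, 1716, 497 and 342 CPM in the PBS-labelled library. Cells with a single Lgr5 UMI were thus near the Lgr5-undetected cells for Krt79, and cells with at least 2 had levels 2.34-fold and 4.48-fold below those with 1. Cst6, a cysteine protease inhibitor gene counted here among upper follicle markers, was 3.82-fold and 3.14-fold lower with at least 2 UMIs than with 1, and Gata6 2.26-fold and 4.76-fold. Lgr6 and Sostdc1 of the same list did not, with ratios of 1.36 and 1.02 in the sitagliptin-labelled and 0.998 and 0.909 in the PBS-labelled library. Mki67 was at 349, 259, 187 and 167 CPM and 398, 236, 127 and 80.7 CPM over the same 4 steps, lowest in cells with most Lgr5. The Krt1 or Krt10 cells with Lgr5 also carried bulge genes. Their Cd34 level was 161 CPM with at least 2 Lgr5 UMIs, 102 CPM with 1 and 27.0 CPM with none in the sitagliptin-labelled library, and 193, 122 and 7.26 CPM in the PBS-labelled library, highest where Lgr5 counts were highest.

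**Figure D3:**
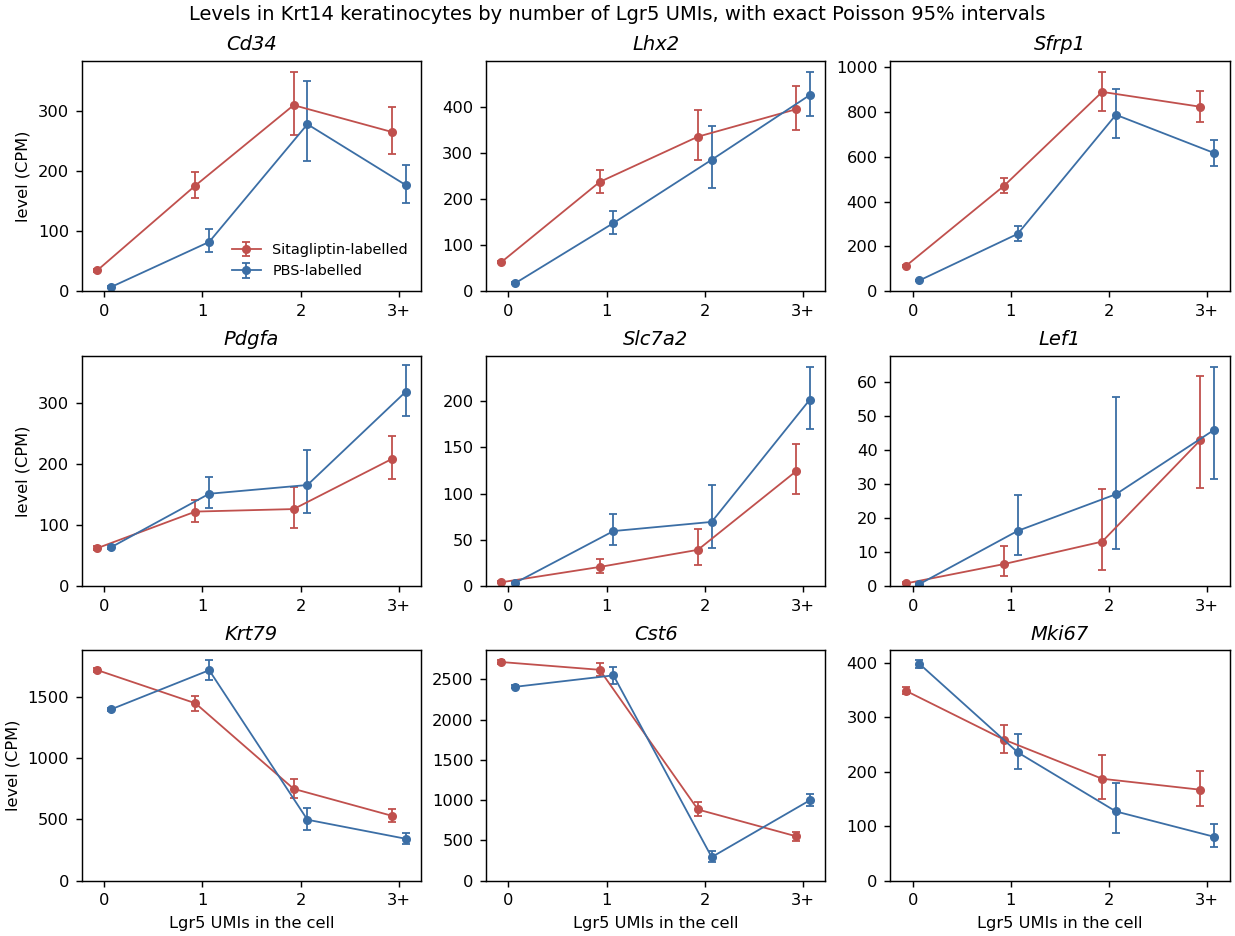
Level in CPM with 95% Poisson intervals (counting error only) of 9 genes in Krt14 keratinocytes with 0, 1, 2 and at least 3 Lgr5 UMIs, for both libraries. Slc7a2 and Lef1 are highest at 3 or more UMIs, Cd34 and Sfrp1 at 2, and Krt79 and Mki67 are lowest at 3 or more.

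Within the Lgr5-detected cells, Cd34 and Slc7a2 were mostly found in different cells. Both were detected in 13 sitagliptin-labelled and 8 PBS-labelled cells. Slc7a2 was found in 5.80% of sitagliptin-labelled cells with Cd34 and 11.1% of those without, and in 9.30% and 39.3% in the PBS-labelled library. Pdgfa went with Slc7a2, in 35 of 45 sitagliptin-labelled cells and 47 of 50 PBS-labelled cells with Slc7a2. Lef1 was found in 35.6% of sitagliptin-labelled cells with Slc7a2 and 1.93% of those without, and in 38.0% and 8.39% in the PBS-labelled library. Lhx2 went with Cd34, in 75% of cells with Cd34 against 41.3% without in the sitagliptin-labelled library, and in 81.4% against 58.9% in the PBS-labelled library.

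Cells with Slc7a2 carried higher levels of Ptch1, Gli1, Lef1 and Wif1 in both libraries. Ptch1 was at 299 CPM in Slc7a2-detected against 62.6 CPM in the other sitagliptin-labelled Lgr5-detected cells, and at 272 against 59.4 CPM in the PBS-labelled ones, ratios of 4.78 (3.74 to 6.10) and 4.58 (3.47 to 6.08). Gli1, a hedgehog target, had ratios of 3.56 (2.38 to 5.31) and 4.14 (2.23 to 8.01). Lef1 had ratios of 15.4 (7.63 to 33.7) and 5.05 (2.73 to 9.83). Wif1, a secreted Wnt inhibitor, was at 174 against 16.6 CPM in the sitagliptin-labelled and 141 against 24.9 CPM in the PBS-labelled cells. Other hedgehog and Wnt pathway genes did not follow them. Boc had ratios of 1.11 (0.757 to 1.60) and 0.893 (0.627 to 1.26), Gas1 of 1.21 (1.01 to 1.45) and 0.856 (0.702 to 1.04), and Fzd2 of 0.698 (0.493 to 0.967) and 0.679 (0.504 to 0.907).

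Further genes followed the same split. Nrp2, a co-receptor for semaphorins and VEGF, was at 91.5 against 13.9 CPM and at 193 against 14.5 CPM. Abi3bp, a matrix protein, was at 507 against 63.97 CPM and at 562 against 105 CPM. Fam13a was at 444 against 65.8 CPM and at 482 against 84.3 CPM. Cells with Slc7a2 thus held the higher level of each of these genes in both libraries. The ligand genes Wnt10b, Pdgfc and Pdgfa had ratios of 19.96 (3.98 to 193), 12.9 and 2.91 in the sitagliptin-labelled and 5.20, 11.6 and 2.64 in the PBS-labelled library. Sox4, a transcription factor of progenitor cells, had 5.15 and 3.93, and Kitl, the ligand through which keratinocytes act on melanocytes, 3.33 and 3.22.

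The same cells had less of several bulge genes. Cd34 was 3.63-fold lower in Slc7a2-detected than in the other sitagliptin-labelled Lgr5-detected cells and 10.7-fold lower in the PBS-labelled ones. Krt24 was 6.52-fold and 6.31-fold lower, Krt15 2.41-fold and 3.05-fold, and Postn, a matrix protein, 2.29-fold and 4.86-fold. Lhx2 and Tbx1 stood apart from these, with ratios of 1.27 and 0.905 in the sitagliptin-labelled and 1.91 and 1.14 in the PBS-labelled library. Depth and melanocyte UMIs moved with the split. Slc7a2-detected cells had a median of 8794 UMIs against 2805 in the other sitagliptin-labelled cells, and 10497.5 against 5846 in the PBS-labelled library, and the melanocyte gene Dct had ratios of 23.8 and 30.1. The part of these in the ratios was not tested, but 36 of 45 and 38 of 50 Slc7a2-detected cells held no melanocyte UMI.

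Splitting by Cd34 turned several of these genes round, but not all. Lhx2 was higher with Cd34 too, at 417 against 195 CPM in the sitagliptin-labelled and 357 against 222 CPM in the PBS-labelled library. Ptch1 was lower, at 77.3 against 122 CPM and at 110 against 146 CPM, a smaller gap than in the Slc7a2 split. Krt24 was at 698 CPM in Cd34-detected against 139 CPM in the other sitagliptin-labelled cells, and at 501 against 30.7 CPM in the PBS-labelled ones, ratios of 5.01 (4.30 to 5.86) and 16.3 (11.6 to 23.6). Sfrp1 was at 1079 against 272 CPM and at 1094 against 98.02 CPM. Postn was at 2469 against 689 CPM and at 1962 against 232 CPM. Secreted factors of the bulge stood on this side, with Nog, a BMP antagonist, at ratios of 5.85 (2.38 to 17.3) and 13.8 (3.23 to 123) and the growth factor gene Fgf18 at 2.63 (1.19 to 6.26) and 29.2 (7.50 to 251). Angptl7, an angiopoietin-like secreted protein, had 5.20 and 8.17. Cxcl14 had 3.81 and 4.77. Lower in Cd34-detected cells was Nrp2, by 4.94-fold and 4.38-fold. The upper follicle genes Cst6 and Krt79 were lower as well, Cst6 by 3.96-fold and 9.11-fold and Krt79 by 2.47-fold and 5.15-fold, and so was Mki67, by 2.02-fold and 3.16-fold. Pdgfa and Cdh3 had ratios of 0.808 and 1.09 in the sitagliptin-labelled and 0.857 and 1.03 in the PBS-labelled cells.

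**Figure D4:**
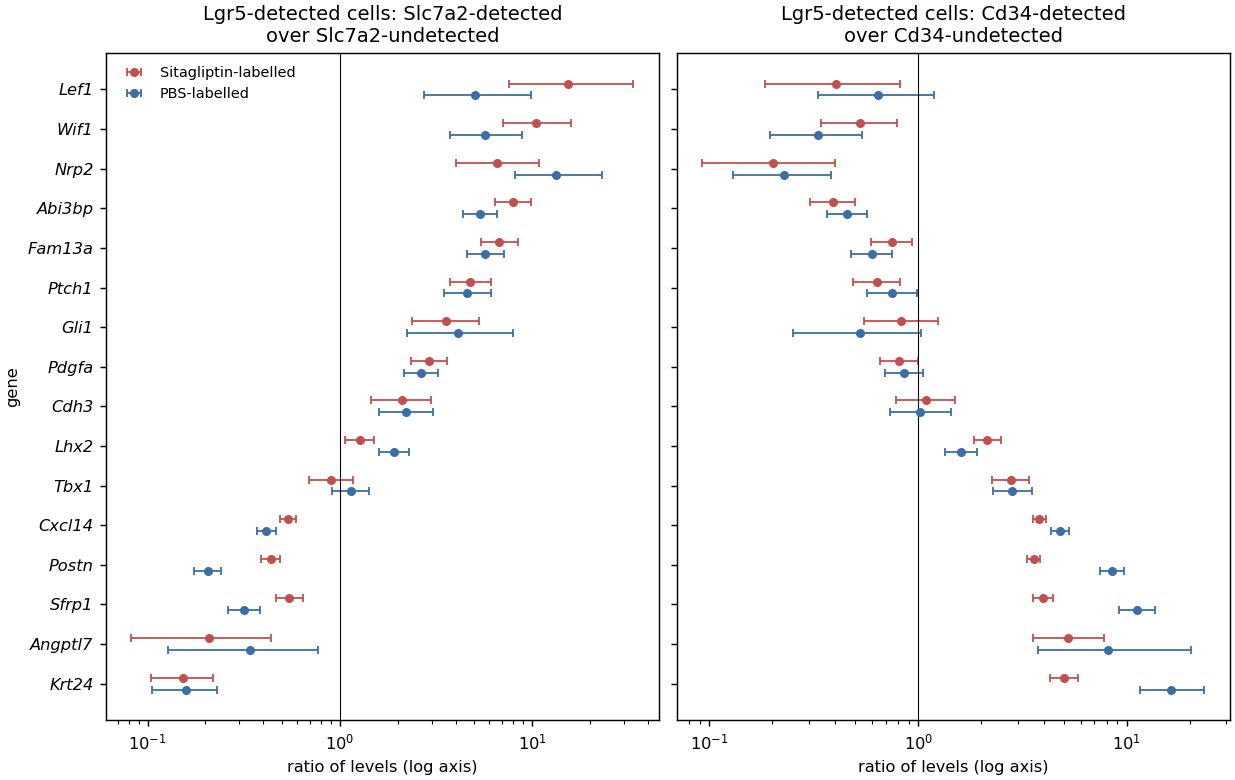
Ratio of levels (log axis) of 16 genes within the Lgr5-detected cells, with 95% counting intervals: Slc7a2-detected over Slc7a2-undetected cells on the left and Cd34-detected over Cd34-undetected cells on the right, for both libraries. Nrp2 and Abi3bp lie right of 1 in the Slc7a2 split and left of 1 in the Cd34 split, while Krt24, Sfrp1 and Postn lie the other way.

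Against keratinocytes with Cd34 but no Lgr5 UMI (614 in the sitagliptin-labelled and 104 in the PBS-labelled library), few genes differed by 2-fold. Of 3095 genes tested in both libraries, 10 (0.323%) were at least 2-fold higher in both and 0 (0.0%) lower, and at 1.5-fold these were 35 (1.13%) and 32 (1.03%). Lgr5 itself, absent from the other cells by choice, is in the counts of higher genes. Krt15 had ratios of 1.003 and 1.27, Sfrp1 1.09 and 1.22, and Postn 0.952 and 0.700. Among the higher were genes named above for their level in Slc7a2-detected cells. Abi3bp was 4.92-fold (3.78 to 6.48) and 8.78-fold (5.88 to 13.7) higher in Lgr5-detected cells, Fam13a 3.42-fold (2.71 to 4.37) and 11.6-fold (7.03 to 20.4), and Ptch1 2.81-fold (2.20 to 3.61) and 4.62-fold (3.04 to 7.35). Slc7a2 was at 49.9 against 4.60 CPM in the sitagliptin-labelled and 115 against 2.40 CPM in the PBS-labelled library. It fell short of 50 CPM in the sitagliptin-labelled library and is not in these counts. The lower Cd34 of Lgr5-detected cells, with ratios of 0.553 and 0.621, follows from the choice of the other cells by Cd34.

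Against Krt75 cells, of which there were 145 in the sitagliptin-labelled and 13 in the PBS-labelled library, 39 of 3195 genes (1.22%) were at least 2-fold higher in Lgr5-detected cells in both libraries and 97 (3.04%) lower, and at 1.5-fold these were 111 (3.47%) and 213 (6.67%). Krt75 itself follows from the rule. Timp3, a metalloprotease inhibitor, was 27.1-fold (23.2 to 31.8) and 7.32-fold (6.10 to 8.79) lower in Lgr5-detected cells, and Krt6a, a keratin of the companion and inner layers, 8.56-fold (7.82 to 9.39) and 5.59-fold (4.85 to 6.44). Krt15 was also lower, at 6416 against 13505 CPM in the sitagliptin-labelled and 5708 against 13452 CPM in the PBS-labelled library. Fam13a was 4.41-fold (3.24 to 6.14) and 20.8-fold (5.72 to 172) higher, and Slc7a2 19.6-fold (7.50 to 73.1) and 21.5-fold (3.81 to 852). The Krt75 cells were deeper, at a median of 9959 and 14392 UMIs, and Lgr5 was found in most of them, in 65.5% and 61.5%.

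Between the treatments, Lgr5-detected cells made up 7.42% of the sitagliptin-labelled and 6.82% of the PBS-labelled Krt14 keratinocytes, a ratio of 1.09 (0.920 to 1.29). The direction depended on the number of Lgr5 UMIs required and on depth. With at least 2 UMIs at full depth the ratio was 0.731 (0.563 to 0.954). After thinning to 2000 UMIs, the ratio with at least 1 UMI was 1.36 (1.07 to 1.75), with 4.85% of sitagliptin-labelled and 3.56% of PBS-labelled cells. Thinned cells with at least 2 UMIs also had the higher share in the sitagliptin-labelled library, at 1.26% (0.946 to 1.65) against 0.734% (0.449 to 1.13). As a share of all retained cells at full depth, the ratio with at least 1 UMI was 0.856 (0.724 to 1.02), with 2.79% and 3.25%. Thinned Krt1 or Krt10 cells held Lgr5 in 3.25% in the sitagliptin-labelled and 1.01% in the PBS-labelled library, so the thinned share outside the selection was higher in the sitagliptin-labelled library too. Its part in the ratio was not tested.

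Within Lgr5-detected cells, Slc7a2, Nrp2, Abi3bp, Sox4 and Id1 stood lower in the sitagliptin-labelled library, and Tsc22d3, Krt24, Angptl7 and Postn higher. Of 3356 genes tested, 14 (0.417%) stood 2-fold or more above their PBS-labelled level in sitagliptin-labelled cells and 32 (0.954%) stood 2-fold or more below it, which makes 46 (1.37%) together. Of the 32 lower, 20 were over 10 times higher in collagen-high, Krt1 or Krt10, or immune barcodes than in Lgr5-detected cells, such as the macrophage genes C1qa, C1qb and C1qc, and 3 were immediate early genes. Of the 14 higher, 5 were over 10 times higher elsewhere, among them Krt1 and Lor. At 1.5-fold, 123 (3.67%) were higher and 96 (2.86%) lower, 219 (6.53%) together. Without cells that held 3 or more UMIs of other cell types the 2-fold count was 27, of which 13 were among the 46. Cells with fewer such UMIs stayed in. With cells thinned to 1000 UMIs the count was 317, of which 25 were among the 46. Each treatment is 1 library, so the treatment and the library cannot be told apart.

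Slc7a2 was at 49.9 CPM (41.8 to 59.1) in sitagliptin-labelled and 115 CPM (99.8 to 131) in PBS-labelled Lgr5-detected cells, 2.29-fold (1.84 to 2.87) lower. Its ratio in Lgr5-undetected cells was 1.19. Nrp2 was at 26.8 CPM in sitagliptin-labelled and 76.2 CPM in PBS-labelled cells, 2.84-fold (2.13 to 3.82) lower, with a ratio of 0.589 in Lgr5-undetected cells. It was 10.6-fold lower when cells were thinned to 1000 UMIs and 1.66-fold lower without cells that held 3 or more UMIs of other cell types. Abi3bp was at 138 and 263 CPM, 1.91-fold (1.67 to 2.19) lower, with a ratio of 1.06 in Lgr5-undetected cells. Nrp2 and Abi3bp were also higher in Slc7a2-detected than in other Lgr5-detected cells, a split that fixes Slc7a2 itself. Sox4 was at 72.7 and 144 CPM, 1.98-fold (1.64 to 2.39) lower, and Fam13a at 129 and 222 CPM, 1.72-fold (1.49 to 1.99) lower. In Lgr5-undetected cells Fam13a stood the other way, with a ratio of 2.34.

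Id1, a BMP target, was at 73.04 CPM in sitagliptin-labelled and 159 CPM in PBS-labelled Lgr5-detected cells, 2.17-fold (1.81 to 2.61) lower, with a ratio of 1.03 in Lgr5-undetected cells. Gja1, the connexin 43 gene, was 1.88-fold (1.60 to 2.22) lower. Scd2, a fatty acid desaturase, was 1.998-fold (1.54 to 2.60) lower. Marcksl1, Gpha2 and Dclk1 were between 1.97-fold and 2.06-fold lower. For Dclk1 the ratio was 1.01 when cells were thinned to 1000 UMIs.

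Among genes higher in sitagliptin-labelled Lgr5-detected cells, Col23a1, a membrane collagen, was at 52.2 CPM against 18.4 CPM in PBS-labelled cells, 2.84-fold (1.95 to 4.24) higher, with a ratio of 0.962 in Lgr5-undetected cells. Angptl7 was at 65.2 and 24.2 CPM, 2.70-fold (1.94 to 3.82) higher. That ratio was 16.2 with at most 5% mitochondrial UMIs and 1.63 after thinning to 1000 UMIs. Nuak1, a kinase related to AMPK, was at 114 and 48.3 CPM, 2.35-fold (1.86 to 3.003) higher. In Lgr5-undetected cells the ratios were 12.4 for Angptl7 and 1.55 for Nuak1, so these genes were higher there too. Tsc22d3, the glucocorticoid-induced leucine zipper gene, was at 297 and 152 CPM, 1.95-fold (1.70 to 2.24) higher, with a ratio of 2.54 in Lgr5-undetected cells. Krt24 was 1.90-fold (1.69 to 2.14) and Postn 1.70-fold (1.61 to 1.81) higher. Nifk, Dync1i2, Prss23, Serpinb2, Nmt1 and Fam25c were between 1.80-fold and 2.22-fold higher, and their ratios in Lgr5-undetected cells ran between 1.13 and 2.27.

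**Figure D5:**
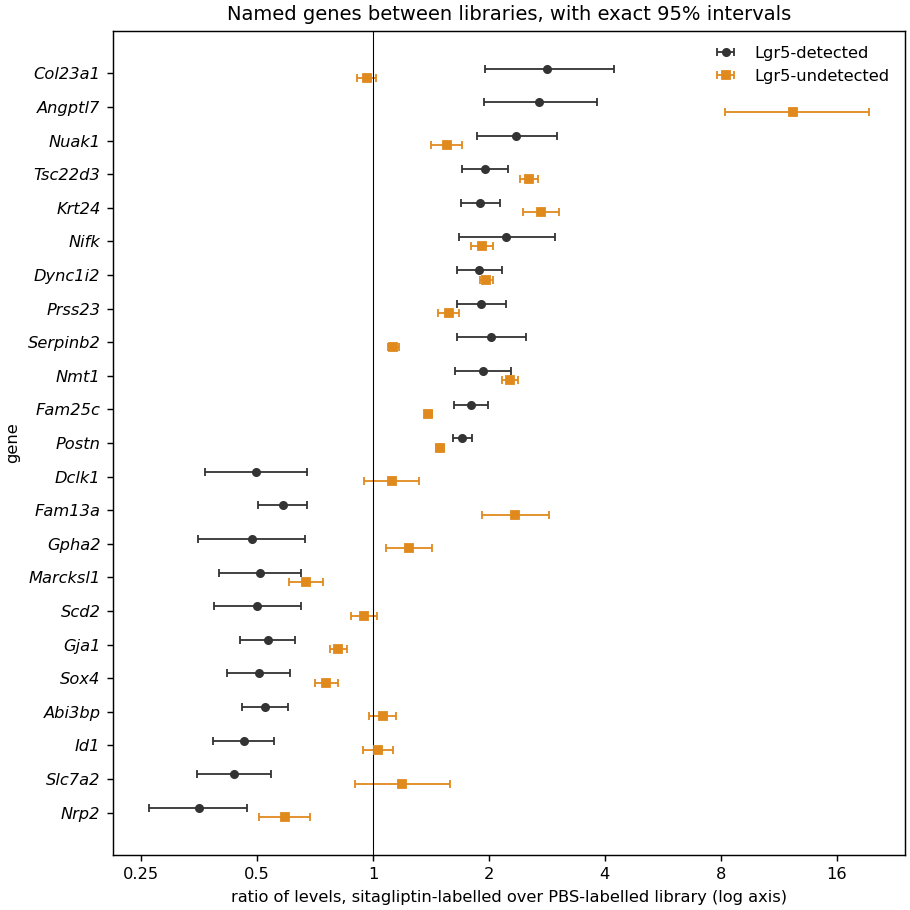
Ratio of levels in the sitagliptin-labelled over the PBS-labelled library (log axis) with 95% counting intervals, for the 12 named genes that were higher (top) and the 11 that were lower (bottom) in Lgr5-detected cells; black circles are Lgr5-detected and orange squares Lgr5-undetected Krt14 keratinocytes. Among the lower genes, Slc7a2, Id1, Abi3bp and Fam13a have orange squares at or right of 1 while their black circles lie left of it.

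Cells with Slc7a2 were a smaller part of the sitagliptin-labelled Lgr5-detected cells. They made up 8.79% (6.48 to 11.6) of these and 25.9% (19.9 to 32.7) of the PBS-labelled Lgr5-detected cells, and 7.41% and 14.7% after thinning. Within Slc7a2-detected cells, Abi3bp had a ratio of sitagliptin-labelled over PBS-labelled level of 0.901 (0.761 to 1.07), Fam13a of 0.922 (0.769 to 1.10) and Ptch1 of 1.10 (0.873 to 1.38). In the cells without Slc7a2 the ratio was 0.608 (0.476 to 0.777) for Abi3bp and 0.780 (0.603 to 1.01) for Fam13a. Nrp2 was lower within the Slc7a2-detected cells, at 0.474 (0.325 to 0.679), and close to equal in the others, at 0.959 (0.520 to 1.82). Id1 and Gja1 ran the other way, with 0.749 and 0.855 in Slc7a2-detected cells and 0.400 and 0.475 in the others.

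Cd34 divided the higher genes. Krt24 had a ratio of 1.39 (1.23 to 1.58) within Cd34-detected cells and 4.53 (3.18 to 6.62) in the others, and Postn 1.26 (1.18 to 1.34) and 2.97 (2.60 to 3.40). Sfrp1 was near equal between libraries in Cd34-detected cells, at 0.986 (0.901 to 1.08), and higher in the sitagliptin-labelled cells without Cd34, at 2.77 (2.25 to 3.44). Sitagliptin-labelled cells without Cd34 were shallower (median 2425.5 UMIs against 8538 in the PBS-labelled library), and the part of depth in these ratios was not tested. Nuak1, Dync1i2 and Nmt1 had ratios between 1.72 and 2.62 in all 4 of these sets of cells, and Tsc22d3 between 1.58 and 2.34.

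Genes that respond to tissue handling and genes of other cells also differed between the treatments. Of 23 dissociation and immediate early genes that passed the filter, 14 were at least 1.5-fold lower in sitagliptin-labelled Lgr5-detected cells and 0 higher. Their median log2 ratio was -0.68 against 0.00 over all tested genes, of which 2.86% were lower and 3.67% higher. Jun was at 380.5 CPM in sitagliptin-labelled and 789.5 CPM in PBS-labelled cells. Of 6 suprabasal markers, 5 were higher, at a median of 0.93, with Krt1, a gene of the rule, at 658 and 271 CPM. Of 5 macrophage markers, 5 were lower, at a median of -4.46, with C1qa at 1.12 and 109.8 CPM, and 3 of 3 antigen presentation markers of dendritic cells were lower as well. Of 14 glucocorticoid-responsive genes, 4 were higher and 0 lower, with a median log2 ratio of 0.54, namely Tsc22d3, Klf9, Txnip and Errfi1. Within Slc7a2-detected cells the handling genes did not stand lower in this way: Jun had a ratio of 0.896 (0.765 to 1.05), Fos of 1.20 (1.03 to 1.40) and Egr1 of 1.15 (0.987 to 1.34). In the cells without Slc7a2 these were 0.394, 0.505 and 0.441. The part of handling genes and other cells' genes in the ratios over all Lgr5-detected cells was not tested.

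Genes of the follicle lists passed 1.5-fold between the treatments in both directions, beside 3.67% of all tested genes higher and 2.86% lower. Of 12 bulge markers, 3 were higher in sitagliptin-labelled cells, Cd34, Postn and Angptl7, and 0 lower. Of 9 R-spondin and Wnt receptors 1 was lower, Fzd7, and of the BMP and hedgehog genes 0 of 8 and 0 of 4 passed 1.5-fold. Among 4 Wnt inhibitors, Dkk3 was higher and Wif1 lower, and among 8 Wnt targets and nuclear factors Tle4 was higher and Ccnd1 lower. Of 18 growth factor and receptor genes, 4 were higher and 2 lower, and of 19 transcription factors 0 were higher and 2 lower, Cux1 and Id1. Of 11 cell cycle genes, 1 was higher and 1 lower. Lhx2 had a ratio of 1.08 and Pdgfa of 0.668.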

How the data were processed

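Skin of mice injected with sitagliptin or PBS was profiled with 10x Chromium, as 1 library per treatment. The authors deposited raw UMI counts per gene and cell barcode, made with Cell Ranger 3.1.0 on mm10 per the submitters' processing notes; other filters are not given in the sources used here. Of 31053 gene IDs, 30934 (99.6%) matched GENCODE vM21, which gave the coordinates. Depth per library and the cell limits stand in the text above. Counts were summed per library and cell set and scaled to CPM with Python 3.11.15, numpy 2.4.6, pandas 2.3.3 and scipy 1.17.1, and drawn with matplotlib 3.10.9. Ratios carry exact conditional binomial intervals, shares Clopper-Pearson intervals and levels Poisson intervals, all at 95%; a count of 0 was given the limit of 3 counts. Reads copied by PCR are collapsed by UMI. Genes at 50 CPM or more in either set and at least 20 UMIs in all were compared, a gene was called at 2-fold, and lists were counted at 1.5-fold with medians on log2 with a pseudocount of 1 CPM. No test was made, because each treatment is 1 library and the cells were chosen by their own counts. Cells were thinned to 2000 UMIs for shares and to 1000 for levels (seed 1).

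The genes named were those of the rule and its markers, up to 15 higher and 10 lower in both libraries against Lgr5-undetected cells and up to 12 each way between treatments, ranked by the interval bound nearest 1 among genes past 1.5-fold, and members of 18 lists with 384 genes and of 16 marker lists. Mitochondrial, ribosomal, haemoglobin, sex-linked, immune receptor, predicted and dissociation genes were left out of the ranking. So were, between treatments, genes over 10 times higher in collagen-high, Krt1 or Krt10, or immune barcodes. Some ranked genes are not reported here and stay in the counts. The selection of cells, the splits and the lists were chosen with earlier results of these data known. No doublet caller was run. Alternatives left out the 5% of cells with most UMIs and cells with 3 or more UMIs of other cell types. These UMIs were summed over fibroblast, macrophage, T cell, dendritic cell, melanocyte and endothelial markers. Further alternatives changed the limits on genes, mitochondrial UMIs, Lgr5, Krt75 and CPM, the totals and the averaging. The scripts were tested on simulated data.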

Additional observations from a re-analysis of the deposited data

Results flagged for a closer look

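In 6 genes of the lists and rule, Lgr5-detected cells stood on opposite sides of Lgr5-undetected cells in the 2 libraries, with intervals that lay apart from 1 in both, and the difference between the libraries was not tested. Gja1, the connexin 43 gene, had a ratio of 0.877 in the sitagliptin-labelled and 1.34 in the PBS-labelled library. Hes1, a Notch target, had 0.785 and 1.19. Junb, an immediate early gene, had 0.894 and 1.38. Krt17, a keratin of the follicle's outer layers, had 0.786 and 1.27. Krt6a, a keratin of the inner layers and of wounded skin, ran the other way, with 1.13 and 0.731. Sbsn, a suprabasal secreted protein, had 0.884 and 1.07. Each of these ratios stood within 1.5-fold of 1.

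Lgr5 was also detected in barcodes that the limit on mitochondrial UMIs kept out of every comparison. These were 97 barcodes in the sitagliptin-labelled library, 6.38% (5.20 to 7.72) of the 1521 that met the other conditions except that on Lgr5, and 91 barcodes in the PBS-labelled library, 6.67% (5.41 to 8.13) of 1364. The shares lay close to those of the retained Krt14 keratinocytes, 7.42% and 6.82%.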

How the results depend on the processing

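No paired analysis was possible because each treatment is 1 library. Between treatments, 46 genes passed 2-fold in Lgr5-detected cells. The count was 186 with at most 5% mitochondrial UMIs and 90 with at least 2 Lgr5 UMIs. It was 67 with totals without mitochondrial, ribosomal and haemoglobin genes, and 66 with the mean CPM over cells. Without cells that held 3 or more UMIs of other cell types it was 27, and with cells thinned to 1000 UMIs 317. With a minimum of 20 CPM it was 134, and with none 512. In cells with Cd34, an alternative chosen after seeing the data, it was 94. Of the 46 genes, 13 were also among the 27 and 25 among the 317. Against Lgr5-undetected cells 141 genes passed 2-fold in both libraries. That count was 315 with at least 2 Lgr5 UMIs, 303 at 20 CPM and 1027 without a minimum. The share of Lgr5-detected cells, at a ratio of 1.09, was 1.41 with at most 5% mitochondrial UMIs, 0.731 with at least 2 Lgr5 UMIs, 0.856 as a share of all retained cells and 1.36 after thinning to 2000 UMIs. Named ratios kept their direction except Elovl6 (1.35) against Lgr5-undetected cells in the PBS-labelled library with at most 5% mitochondrial UMIs, and Dclk1 (1.01) between treatments after thinning. Their sizes were less steady: 38 of 71 named ratios moved by more than 1.5 times under at least 1 alternative, 21 of them with cells thinned to 1000 UMIs, 17 with at most 5% mitochondrial UMIs and 10 with at least 2 Lgr5 UMIs. The cause was not tested for any of these. The 5% limit left 137 sitagliptin-labelled and 34 PBS-labelled cells, and genes under 50 CPM rest on few UMIs.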
